A study of Mus musculus with 9 samples.

Results

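The neuronal basic helix-loop-helix PAS (bHLH-PAS) transcription factors and their dimerization partners were examined in the embryonic forebrain of *Npas3* heterozygous mice. The members were chosen by symbol, as the rows of the count table for *Npas3*, *Npas1*, *Npas4*, *Npas2*, *Clock*, *Sim1*, *Sim2*, *Arnt*, *Arnt2* and *Arntl*. All 10 were found among the 55401 genes of the table, and 8 of them passed the filter on low counts, which *Sim1* and *Sim2* did not. The question was whether relatives of *Npas3* or the ARNT partners differed in embryos that carry a single working copy of *Npas3*. Bulk forebrain of 5 wild-type (WT) and 4 heterozygous (HET) embryos was measured, all female and between E16 and E17. HET embryos carried a constitutive knockout allele of *Npas3* in every cell, on a C57BL/6J background, and WT embryos were littermates with genotype Npas+/+ against Npas+/- in the labels. Each sample was a separate embryo, and no further treatment was given to either group. The deleted exons are not given in the sources used here, and the counts per gene include reads from both alleles.

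Factors of this family carry a basic region that contacts DNA, a helix-loop-helix segment and a pair of PAS domains, and they bind DNA as heterodimers. One group of subunits is regulated by tissue, signal or time of day and includes NPAS1, NPAS3, NPAS4, SIM1, SIM2, CLOCK and NPAS2. The other group holds the general partners ARNT, ARNT2 and ARNTL (BMAL1), of which ARNT2 is the form known for its high expression in neurons. NPAS1 and NPAS3 are close relatives known from interneurons and from progenitors of the developing forebrain. Both need a partner of the ARNT kind, so the level of partners relative to these subunits is a quantity that the table can give at the RNA level.

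Libraries held 42640218 to 62830060 counted reads (median 45845845). Levels are given in CPM, the count scaled to library size after TMM correction, and 3 counts corresponded to 0.0473 to 0.0722 CPM. The share of RNA from choroid plexus, the epithelium that makes cerebrospinal fluid, was unequal between embryos. *Ttr*, which encodes transthyretin and is abundant in that epithelium, reached 2127 to 2631 CPM in 3 WT embryos (15, 16, 41) and 466.6 CPM in 1 HET embryo (24). The other 5 embryos had 0.770 to 11.7 CPM. All 8 genes of a choroid plexus list had negative log2 fold changes (HET over WT, as throughout), with a median of −2.89 against −0.005 over all tested genes. None of the 8 passed edgeR's test at an adjusted p of 0.05, 6 had an unadjusted p under 0.05 (against 5.42% of all tested genes), and DESeq2 and limma-voom also called 0. Summed levels of the list were 18.9 to 2932 CPM in WT and 28.8 to 540.5 CPM in HET embryos. The labels name astrocytes as the cell type, but in WT embryos *Gfap*, *Aqp4* and *Aldh1l1* averaged 8.58, 1.48 and 22.1 CPM, whereas the neuronal genes *Tubb3* and *Map2* averaged 1743 and 1313 CPM.

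*Npas3*, the targeted gene (ENSMUSG00000021010, chromosome 12 from 53248677 to 54072175, plus strand, GRCm38), was at 40.8, 35.4, 29.7, 38.3 and 37.0 CPM in WT embryos 5, 15, 16, 41 and 43. It was at 27.9, 28.2, 34.1 and 27.8 CPM in HET embryos 5, 6, 7 and 24. The groups overlapped, because HET embryo 7 was above WT embryo 16. WT embryos averaged 36.2 ± 4.18 CPM (SD, n = 5), HET embryos averaged 29.5 ± 3.09 CPM (SD, n = 4), and the HET mean was 81.4% of the WT mean. This gave a log2 fold change of −0.30 (SE 0.10) and a 95% interval of −0.52 to −0.07. The unadjusted p of edgeR's quasi-likelihood test was 0.0134 and the adjusted p was 0.877 over all tested genes. As a fold, the interval was 0.699 to 0.950 and did not include 50%, the level at which 1 of 2 equal alleles gives all of the reads. Each embryo had 1210 to 2428 *Npas3* counts.

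*Npas1*, the closest relative of *Npas3*, was the member that differed most between genotypes. *Npas1* (ENSMUSG00000001988, chromosome 7 from 16455721 to 16477728, minus strand) was at 4.47, 9.24, 10.1, 7.64 and 7.99 CPM in WT embryos 5, 15, 16, 41 and 43, from 186 to 485 counts. It was at 1.19, 1.26, 2.09 and 2.59 CPM in HET embryos 5, 6, 7 and 24, from 54 to 135 counts. The highest HET embryo (24) stayed under the lowest WT embryo (5), so the groups did not overlap. WT embryos averaged 7.90 ± 2.16 CPM (SD, n = 5), HET embryos averaged 1.78 ± 0.677 CPM (SD, n = 4), and the fitted level was 4.41-fold higher in WT. On the log2 scale *Npas1* fell by 2.14 in HET embryos (SE 0.29, 95% interval −2.78 to −1.50), with edgeR's adjusted p at 0.0165. The adjusted p was 1.048e-12 by DESeq2 and 0.0216 by limma-voom. By unadjusted p, *Npas1* was the 16th of 17818 tested genes.

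**Figure D1:**
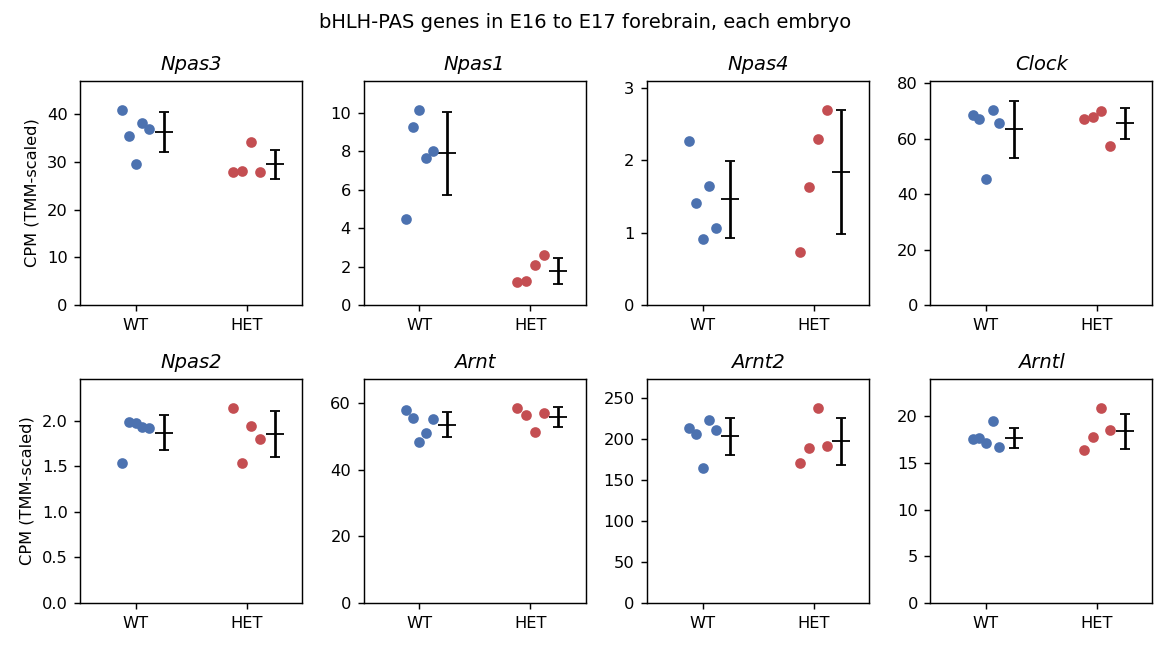
Level of each of the 8 tested members in CPM on the vertical axis, which starts at 0, for the 5 WT and 4 HET embryos. Points are embryos and bars are the mean with its SD. The *Npas1* points of HET embryos, at 1.19 to 2.59 CPM, lie below those of WT embryos, at 4.47 to 10.1 CPM. The groups overlap for each of the other members shown.

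*Npas1* was the 1 member called among the 8 tested, and the call was lower in HET. Over all tested genes, edgeR called 25 (5 higher and 20 lower), which is 0.140% in either direction and 0.112% lower in HET. Groups did not overlap for 1 of the 10 members, again *Npas1*, against 1.85% of the tested genes. *Npas1* and *Npas3* were the 2 members with an unadjusted p under 0.05, which 965 of the 17818 tested genes (5.42%) had.

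The *Npas1* call held in some subsets of embryos and was lost in others. When only embryos with *Ttr* under 100 CPM were fitted, 2 WT and 3 HET embryos were left. The *Npas1* log2 fold change was then −2.04 and edgeR's adjusted p 0.342. A covariate for the choroid plexus score gave −1.91 (adjusted p = 0.00739 by edgeR), and one for a ventral forebrain score gave −2.13 (adjusted p = 0.0278). The call was kept without any one WT embryo (edgeR's adjusted p 0.004047 to 0.04988) and without HET embryo 24 (0.02102). Without HET embryo 5, 6 or 7 edgeR's adjusted p was 0.0639, 0.0911 or 0.0518, although the log2 fold change stayed between −2.38 and −1.99 whichever embryo was left out.

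In bulk tissue, fewer *Npas1*-expressing cells and less *Npas1* RNA per cell cannot be told apart. *Npas1* is known from ventral forebrain interneurons and pallidal neurons, and 16 ventral forebrain, pallidal and interneuron genes were read as a description. The list does not hold *Htr3a*, which is described below, and the number of *Npas1*-expressing cells was not tested. None of the 16 passed edgeR's test, none had an unadjusted p under 0.05, and DESeq2 and limma-voom also called 0. Their median log2 fold change was 0.04, against −0.005 over all tested genes. The largest log2 fold changes were 0.63 (SE 0.99) for *Lhx8*, a homeobox gene of cholinergic neurons, −0.44 (SE 0.37) for *Dlx2*, an early interneuron determinant, and 0.37 (SE 0.60) for *Dlx6*. Summed levels of the list overlapped, at 469.2 to 832.8 CPM in WT and 470.2 to 745.4 CPM in HET embryos. Some of its genes varied widely within a genotype, such as *Nkx2-1* at 1.24 to 24.5 CPM among WT embryos.

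The sequences before the starts of *Npas1* and *Npas3* are shown because these are the 2 members with the smallest p-values, and because bHLH proteins contact DNA at E-boxes, whose letters are CANNTG. Each is the 250 bases before a start site in RefSeq on GRCm38.p6, 5′ to 3′ on the strand of the gene, with CANNTG in capitals. The *Npas1* stretch (chr7:16476781-16477030, minus strand) lies within the span of the gene in the GENCODE annotation, 16455721 to 16477728. The *Npas3* stretch (chr12:53248182-53248431, plus strand) lies before the GENCODE start of the gene.
Npas1: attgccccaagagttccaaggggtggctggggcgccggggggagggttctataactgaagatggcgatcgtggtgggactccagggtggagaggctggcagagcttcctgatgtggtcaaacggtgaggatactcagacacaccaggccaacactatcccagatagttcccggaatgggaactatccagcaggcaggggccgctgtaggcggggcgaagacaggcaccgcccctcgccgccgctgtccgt
Npas3: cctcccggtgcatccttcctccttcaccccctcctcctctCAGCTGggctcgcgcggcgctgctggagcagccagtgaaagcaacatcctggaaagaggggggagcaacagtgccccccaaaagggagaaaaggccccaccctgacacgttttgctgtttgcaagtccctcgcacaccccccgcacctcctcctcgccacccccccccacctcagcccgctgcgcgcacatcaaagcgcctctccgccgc
The *Npas3* stretch holds 1 CANNTG, with its first base 210 bases before the start, and the *Npas1* stretch holds none. Both strands were searched, and 66.2% of the 32851 RefSeq promoter stretches of this length hold at least 1. CACGTG, which is a form of CANNTG and the E-box of CLOCK dimers, was in neither stretch and is in 6.02% of all. ACGTG, the core bound by dimers of ARNT with several partners and part of CACGTG, occurs in the *Npas3* but not in the *Npas1* stretch, and is in 16.6% of all. Of the members, 9 have an entry in this table. The stretches of *Arnt*, *Arnt2* and *Npas2* hold 1 CANNTG each, that of *Sim1* holds 2, those of *Npas4* and *Arntl* hold none, and 1 of the 3 stretches of *Clock* holds 1.

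The neighbours of *Npas1* on chromosome 7 did not pass the test. Within 500 kb, 28 other genes were tested, 0 were called by edgeR and 0 had an unadjusted p under 0.05. Their log2 fold changes were between −0.19 and 0.49, with a median of 0.06. No exonic base of *Npas1* overlaps another annotated gene, and none of its 50-base words occurs without mismatch in another gene.

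Genes whose pattern over the 9 embryos was most like that of *Npas1* were *Fabp7*, *Htr3a*, *Enox1*, *Gm6145* and *Zcchc24*, among 17817 other tested genes. The embryos share the genotype split, so that any gene with a large genotype difference ranks high, and r is therefore given also after the genotype means were subtracted. Over 9 embryos Pearson's r with *Npas1* was 0.97 for *Fabp7*, which encodes a fatty acid binding protein of radial glia, and 0.78 after subtraction. *Htr3a*, a serotonin receptor subunit gene known from cortical interneurons, had an r of 0.96 and kept 0.92 after subtraction. Its level was 1.83 to 4.96 CPM in WT and 1.03 to 1.88 CPM in HET embryos, with a log2 fold change of −1.45 that did not pass edgeR's test (adjusted p = 0.170) but was called by DESeq2 (adjusted p = 0.0001611). *Htr3a* was also called by edgeR without WT embryo 5 (adjusted p = 0.0106) and without a filter on low counts (0.04965), and not in the low-*Ttr* embryos (0.9987). For *Enox1*, *Gm6145* and *Zcchc24* r was 0.96, 0.96 and 0.95, and 0.78, 0.67 and 0.54 after subtraction. *Gm6145* and *Zcchc24* fell in HET embryos, with log2 fold changes of −3.30 and −2.08 and adjusted p-values of 0.0002697 and 7.681e-05 in edgeR's test. *Fabp7* also fell, by 0.86 on the log2 scale with an adjusted p of 0.0223 by edgeR. It was the 1 gene called among 14 radial glia and astrocyte genes, against 0.140% of all tested genes. The *Fabp7* call was lost in the low-*Ttr* embryos (adjusted p = 0.467 by edgeR) and without WT embryo 15, 41 or 43 or HET embryo 6 or 7 (0.0561 to 0.115). Of the 14 genes 10 had negative log2 fold changes, with a median of −0.10. An unadjusted p under 0.05 was found for 3 of the 14, against 5.42% of all tested genes. The 3 were *Fabp7*, *Aqp4* and *Aldh1l1*, a folate enzyme gene of astrocytes that averaged 22.1 CPM in WT and 9.89 CPM in HET embryos. *Aldh1l1* had a log2 fold change of −1.16, and its groups overlapped, at 15.3 to 31.7 CPM in WT and 2.79 to 18.5 CPM in HET embryos. Its adjusted p was 0.904 by edgeR, 0.704 by DESeq2 and 0.749 by limma-voom. In edgeR's test it was 0.0244 with the ventral forebrain covariate, 0.879 with the choroid plexus covariate and 0.9987 in the low-*Ttr* embryos. *Aldh1l1* was not called when any embryo was left out. DESeq2 called *Aqp4* as well, the water channel gene of astrocyte endfeet, with a log2 fold change of −1.63 and an adjusted p of 0.555 by edgeR and 0.03096 by DESeq2. *Aqp4* was low, with 7 to 128 counts per embryo. It had groups that did not overlap, at 1.17 to 2.02 CPM in WT and 0.163 to 1.07 CPM in HET embryos. This held for 2 of the 14 genes, *Aqp4* and *Fabp7*, against 1.85% of the tested genes. In edgeR's test *Aqp4* was called without HET embryo 7 (adjusted p = 0.0209) and not in the low-*Ttr* embryos (0.9987).

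The genes most like *Npas3* were *Cfap100*, *Mapk6*, *Entpd1*, *Atmin* and *Dmrtb1*. Pearson's r with *Npas3* over the 9 embryos was 0.91 to 0.92 for all 5 and 0.81 to 0.85 after the genotype means were subtracted. The 2 lists of 5 share no gene. Both were picked as the highest r among 17817 genes over only 9 embryos, and neither set of r values was compared with chance. Within WT embryos, the order of *Npas1* from low to high (5, 41, 43, 15, 16) was the reverse of the order of *Npas3*, and this did not hold among HET embryos. With 5 WT embryos no coefficient is given.

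**Figure D2:**
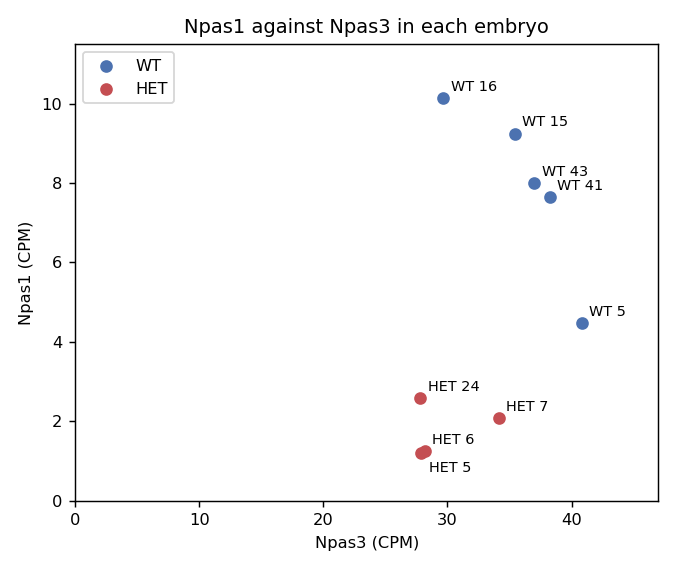
*Npas1* against *Npas3* in CPM, with 1 labelled point for each of the 5 WT and 4 HET embryos and both axes linear. HET embryos lie at the lower left, at 27.8 to 34.1 CPM of *Npas3* and 1.19 to 2.59 CPM of *Npas1*. Among WT embryos, embryo 5 has the highest *Npas3* and the lowest *Npas1* level, and embryo 16 has the lowest *Npas3* and the highest *Npas1* level.

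The general partners were next compared. *Arnt2*, the neuronal partner (chromosome 7 from 84246278 to 84410176, minus strand), was at 213.8, 206.0, 165.0, 223.7 and 210.9 CPM in WT embryos 5, 15, 16, 41 and 43. It was at 170.5, 189.3, 238.4 and 191.8 CPM in HET embryos 5, 6, 7 and 24. The lowest embryo was WT and the highest HET, so the groups overlapped. For *Arnt2* the log2 fold change was −0.05 (SE 0.11, 95% interval −0.29 to 0.19), and edgeR's adjusted p was 0.953.

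*Arnt*, the ubiquitous partner that also serves the hypoxia and dioxin receptors (chromosome 3 from 95434388 to 95497240, plus strand), was at 57.8, 55.4, 48.2, 51.0 and 55.1 CPM in WT embryos. It was at 58.5, 56.5, 51.4 and 56.8 CPM in HET embryos, within or just above the WT range. *Arnt* had a log2 fold change of 0.06 (SE 0.07, interval −0.09 to 0.21), and edgeR's adjusted p was 0.927. *Arntl*, the partner of CLOCK and NPAS2 (chromosome 7 from 113207465 to 113314126, plus strand), ranged from 16.7 to 19.5 CPM among WT embryos (median 17.5 CPM), and HET embryos had 16.4, 17.7, 20.9 and 18.5 CPM. For *Arntl* the log2 fold change was 0.05 (SE 0.09, interval −0.14 to 0.25), and edgeR's adjusted p was 0.940. The intervals of these 3 partners do not include a change of 1 on the log2 scale in either direction.

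The balance of both general partners was computed in each embryo from CPM per kilobase of exon. The ratio of *Arnt2* to *Arnt* was 3.85, 3.87, 3.57, 4.56 and 3.98 in WT embryos and 3.04, 3.49, 4.83 and 3.51 in HET embryos. HET embryos thus held both the lowest and the highest ratio. On the log2 scale WT ratios averaged 1.98 ± 0.13 (SD, n = 5) and HET ratios averaged 1.87 ± 0.28 (SD, n = 4). The difference of −0.11 had p = 0.429 in an exact two-sided permutation test, where 0.00794 is the smallest p that 5 against 4 embryos allow. When each embryo was left out in turn, the difference was between −0.24 and −0.02. The exact p was 0.0357 without HET embryo 7, and 0.314 to 0.875 when any other single embryo was left out.

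Relative to these partners, the summed RNA of *Npas1* and *Npas3* differed between genotypes, as the values of *Npas1* and *Npas3* above imply. Their sum was 8.29, 8.97, 8.31, 8.91 and 8.82 CPM per kilobase in WT embryos and 5.04, 5.11, 6.38 and 5.49 CPM per kilobase in HET embryos. *Npas1* amounted to 21.9%, 52.1%, 68.2%, 39.9% and 43.1% of the *Npas3* level in WT embryos 5, 15, 16, 41 and 43. It amounted to 8.52%, 8.91%, 12.2% and 18.6% in HET embryos. *Arnt* and *Arnt2* together were 3.31 to 4.23 times the sum of *Npas1* and *Npas3* in WT embryos and 5.83 to 6.20 times that sum in HET embryos. These ratios are descriptions and were not tested.

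The order of the members' levels was taken per kilobase of exon. In WT embryos it ran from *Arnt2* at 26.5 CPM per kilobase (range 21.5 to 29.1) to *Arnt* at 6.68, *Npas3* at 6.03, *Clock* at 4.61, *Npas1* at 2.62 and *Arntl* at 2.35 CPM per kilobase. *Npas2* and *Npas4* followed at 0.391 and 0.352, *Sim2* at 0.0177 and *Sim1* at 0.00202 CPM per kilobase. Among neighbours in this order, ranges overlapped between *Arnt* and *Npas3*, *Npas3* and *Clock*, *Clock* and *Npas1*, *Npas1* and *Arntl*, and *Npas2* and *Npas4*. In HET embryos the order was alike except that *Npas1*, at 0.592 CPM per kilobase (range 0.396 to 0.861), lay below *Arntl* at 2.44 (range 2.18 to 2.77), and *Npas4* at 0.444 lay above *Npas2* at 0.388. The HET ranges of *Npas1* and *Npas4* overlapped, as did those of *Npas4* and *Npas2*.

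**Figure D3:**
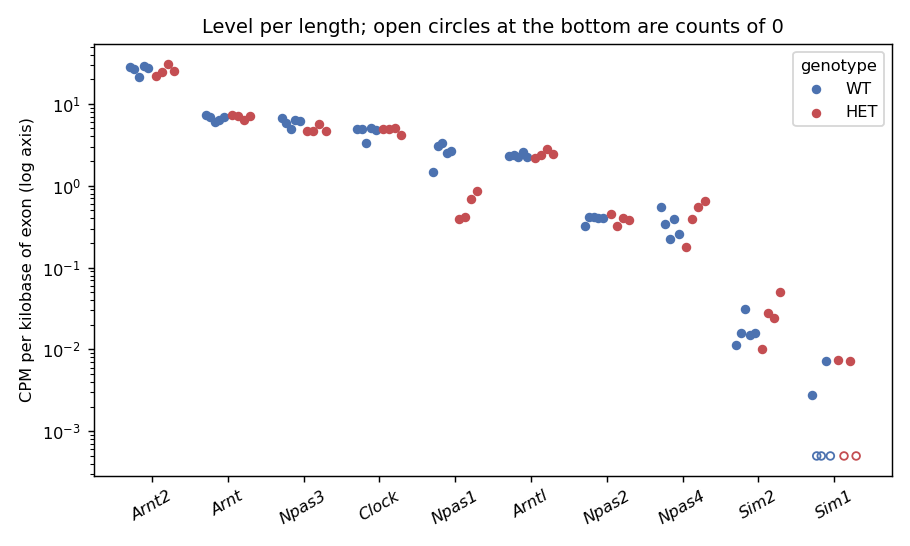
CPM per kilobase of exon for the 10 members on a log axis, with 1 point for each WT or HET embryo and open circles at the lower edge for counts of 0. *Arnt2* is highest in every embryo, at 21.5 to 31.0 CPM per kilobase, and *Sim1* and *Sim2* lie lowest. *Npas1* lies beside *Arntl* in WT and beside *Npas4* in HET embryos.

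*Clock* and *Npas2* are partly interchangeable partners of ARNTL in the circadian loop. *Clock* (chromosome 5 from 76209868 to 76304792, minus strand) was at 68.4, 67.0, 45.3, 70.2 and 65.5 CPM in WT embryos and 67.0, 67.7, 69.7 and 57.4 CPM in HET embryos. WT embryo 16 was the lowest of all 9, and the other 4 WT embryos overlapped with HET embryos. *Clock* had a log2 fold change of 0.05 (SE 0.12, interval −0.22 to 0.31), and edgeR's adjusted p was 0.955. *Npas2* (chromosome 1 from 39193731 to 39363236, plus strand) was at 1.54, 1.99, 1.98, 1.94 and 1.92 CPM in WT embryos and 2.14, 1.54, 1.94 and 1.80 CPM in HET embryos. *Npas2* thus had overlapping groups and a log2 fold change of −0.01 (SE 0.15, interval −0.34 to 0.31), and edgeR's adjusted p was 0.992.

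Of 20 genes of the circadian feedback loop, 0 were called by edgeR. An unadjusted p under 0.05 was found for 3 of the 20, against 5.42% of all tested genes. The median log2 fold change was 0.007, against −0.005 over all tested genes. *Hlf*, which encodes a PAR bZIP factor of the clock output, ranged from 5.36 to 7.76 CPM among WT and from 9.83 to 13.1 CPM among HET embryos. Its groups thus did not overlap, which held for 1 of the 20 genes, against 1.85% of the tested genes. *Hlf* had a log2 fold change of 0.72 (SE 0.13), with an adjusted p of 0.0871 by edgeR and 3.817e-05 by DESeq2, the 1 call that DESeq2 made in this list. *Bhlhe40*, which encodes a bHLH repressor of the loop, had a log2 fold change of −0.70 (SE 0.26) with an adjusted p of 0.907 by edgeR. Without WT embryo 5 the log2 fold change of *Bhlhe40* was −0.40. With the choroid plexus covariate it was −0.95 (adjusted p = 0.0956 by edgeR), and in the low-*Ttr* embryos −1.03 (0.9987). *Nr1d1*, which encodes the repressor REV-ERBα, had a log2 fold change of 0.21 with an adjusted p of 0.911.

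*Npas4* is induced by calcium entry in active neurons. *Npas4* (chromosome 19 from 4984355 to 4990316, minus strand) was at 2.26, 1.42, 0.913, 1.64 and 1.06 CPM in WT embryos and 0.736, 1.63, 2.29 and 2.69 CPM in HET embryos. HET embryos held both extremes, and the spread within a group exceeded the difference of the means, 1.46 ± 0.533 CPM (SD, n = 5) and 1.84 ± 0.854 CPM (SD, n = 4). For *Npas4* the log2 fold change was 0.34 (SE 0.36, adjusted p = 0.920 by edgeR), and its interval of −0.45 to 1.12 includes both lower and higher levels. It was 0.09 without HET embryo 24, 0.60 without HET embryo 5, 0.54 without WT embryo 5, 0.21 without WT embryo 16, 0.22 without HET embryo 7 and −0.09 in the low-*Ttr* embryos. Of 8 other activity-regulated genes, 7 were tested and 0 were called by edgeR or DESeq2. An unadjusted p under 0.05 was found for 1 of the 7, against 5.42% of all tested genes. That gene was *Bdnf*, a neurotrophin gene, with a log2 fold change of 0.33 (SE 0.13) and an adjusted p of 0.909. *Egr1* and *Fos*, immediate early genes, had log2 fold changes of 0.43 and −0.42.

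*Sim1* and *Sim2*, known from the neuroendocrine hypothalamus and the ventral midline, were at or near the limit of detection. *Sim1* (chromosome 10 from 50894754 to 50989152, plus strand) had 1, 0, 0, 4 and 0 counts in WT embryos 5, 15, 16, 41 and 43 and 3, 0, 3 and 0 counts in HET embryos 5, 6, 7 and 24. *Sim2* (chromosome 16 from 94084931 to 94127032, plus strand) had 2, 3, 6, 4 and 3 counts in WT and 2, 5, 5 and 11 counts in HET embryos. Neither was tested by edgeR after the filter on low counts. DESeq2 gave an unadjusted p of 0.651 for *Sim1* and 0.33 for *Sim2*, and a genotype difference was not detectable at this depth. Of 8 genes listed for the neuroendocrine hypothalamus, not all of them particular to cells with *Sim1*, 5 were tested and 0 were called, also by DESeq2. *Otp*, *Oxt* and *Avp*, which define the SIM1-dependent neuroendocrine nuclei, had at most 3, 2 and 2 counts in any embryo. The tested genes with the largest log2 fold changes were *Trh* (0.45), *Mc4r* (−0.40) and *Crh* (0.27), and 0 of the 5 had an unadjusted p under 0.05.

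Of 9 remaining PAS genes, which cover the hypoxia and dioxin receptors, *Arntl2* and the PAS coactivators, 0 were called by edgeR, DESeq2 or limma-voom and 0 had an unadjusted p under 0.05. Their log2 fold changes lay between −0.10 for *Epas1*, which encodes a hypoxia-inducible factor, and 0.15 for the coactivator gene *Ncoa1* (SE 0.10). *Arntl2*, a paralog of *Arntl*, had 0.13. The median of the list was −0.004.

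**Figure D4:**
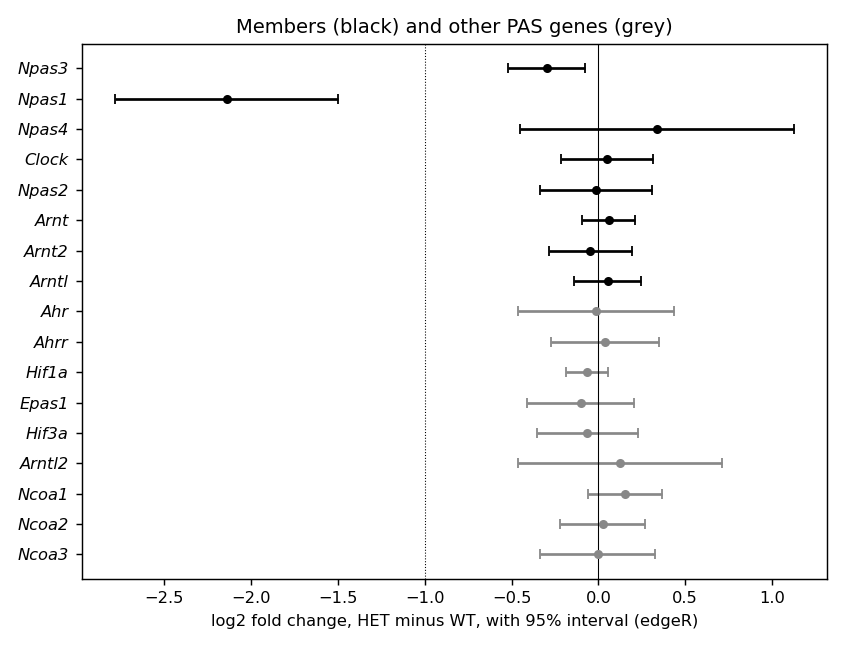
Log2 fold change (HET over WT) of the 8 tested members (black) and the 9 other PAS genes (grey). Points are edgeR's estimates and bars are 95% intervals. The solid line marks 0 and the dotted line marks −1, a level of 50%. The *Npas1* interval, −2.78 to −1.50, lies below the dotted line, and that of *Npas3*, −0.52 to −0.07, lies between the lines. The intervals of the other 6 members and of the grey genes include 0.

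Markers of other cell types were read as well. Of 10 cortical neuron genes, 0 were called, and their summed level was 4834 to 5263 CPM in WT and 4685 to 5187 CPM in HET embryos. Lists of 5 microglia, 4 endothelium, 4 erythroid, 4 oligodendrocyte and 4 meninges genes gave 0 calls each by edgeR, DESeq2 and limma-voom. In these lists 0, 1, 0, 2 and 0 genes had an unadjusted p under 0.05, against 5.42% of all tested genes. The 2 oligodendrocyte genes were *Olig1* and *Sox10*, both higher in HET embryos, with log2 fold changes of 0.63 and 0.67. In the same list *Olig2* had 0.19 and *Pdgfra* −0.58. The part of the unequal choroid plexus RNA in the values of *Npas1* was not tested beyond the fits given above.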

How the data were processed

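TruSeq libraries of poly(A) RNA from the forebrain of 5 WT and 4 HET female embryos were sequenced on an Illumina HiSeq instrument. The authors aligned a single read of each pair to GRCm38.p6 with STAR 2.7.9a and counted reads over the genes of GENCODE M25 with featureCounts. Raw counts were deposited, and the handling of strand and of multiply aligned reads is not given in the sources used here. Libraries held 42640218 to 62830060 counts, and depth covers counting error only, since PCR copies cannot be told from molecules. No pair of embryos had identical counts.

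Counts were filtered with edgeR's filterByExpr (minimum count 10) and scaled by TMM. HET was compared with WT over 17818 genes by edgeR's quasi-likelihood test (edgeR 4.0.16, R 4.3.3) with Benjamini-Hochberg adjustment at 0.05, and without covariates. The methods of the study use DESeq2 for this comparison, which was run as an alternative (DESeq2 1.42.0), as was limma-voom (limma 3.58.1). A standard error is the log2 fold change over the root of the F statistic, and 95% intervals use the total degrees of freedom of the fit. The edgeR steps were also run on simulated counts, drawn independently for each gene and without unequal choroid plexus RNA between embryos. Other alternatives were other scalings, a minimum count of 50 or no filter, choroid plexus or ventral forebrain scores as covariates, embryos with *Ttr* under 100 CPM alone, and leaving out each embryo. Exon lengths, positions and overlaps came from GENCODE M21 on GRCm38, which lists 55141 of the 55401 identifiers, and promoter stretches from RefSeq on GRCm38.p6.

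All 10 members were named. From the other lists every called gene was named, and up to 3 with the largest absolute log2 fold change, and the 5 genes most like *Npas1* and *Npas3* were ranked by Pearson's r of log2 CPM. *Aqp4*, *Aldh1l1* and the oligodendrocyte genes were added after their values were seen, and *Ttr*, *Gfap*, *Tubb3* and *Map2* were named to check the tissue. The members, lists and alternatives were chosen with earlier results of these data known, so the pattern of *Npas1* is not independent support for any of them.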

Additional observations from a re-analysis of the deposited data

Results flagged for a closer look

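In 22 groups of 4 or 5 embryos, 1 per genotype for each of the 10 members and for the *Arnt2* to *Arnt* ratio, the highest or lowest embryo stood apart from the rest of its group 4 times by Dixon's criterion, where chance gives about 1.1 at 1 in 20. *Npas3* in HET embryo 7 was at 34.1 CPM, against 27.8 to 28.2 CPM in the other 3 HET embryos. *Clock* in WT embryo 16 was at 45.3 CPM, against 65.5 to 70.2 CPM in the other WT embryos. *Npas2* in WT embryo 5 was at 1.54 CPM, against 1.92 to 1.99 CPM. *Sim2* in WT embryo 16 was at 0.130 CPM, which is 6 counts, against 0.0481 to 0.0663 CPM.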

How the results depend on the processing

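*Npas1* kept its direction under all 18 alternatives, with a log2 fold change of −2.38 to −1.91, and stayed past the threshold under 14. It was −2.04 (adjusted p = 0.342 by edgeR) in embryos with *Ttr* under 100 CPM, and −2.38 to −1.99 when each embryo was left out, with adjusted p-values of 0.004047 to 0.09111. Members called were 0 in embryos with low *Ttr* and 0 to 1 when each embryo was left out, with 0 without HET embryo 5, 6 or 7. Over all tested genes, DESeq2 called 84 (21 higher and 63 lower, all 25 of edgeR's among them), the embryos with low *Ttr* gave 15 (11 of them shared), and leaving out each embryo gave 14 to 23. *Npas3* stayed between −0.37 and −0.25 under all 18 alternatives, with adjusted p-values of 0.381 to 0.999. Members other than *Npas1* and *Npas3* changed sign under some alternatives, and none of them passed the test under any: *Clock* at −0.0097 and *Npas2* at 0.041 with the choroid plexus covariate, and *Npas2* at 0.12, *Npas4* at −0.089 and *Arnt* at −0.0255 in embryos with low *Ttr*. When each embryo was left out, ranges were −0.051 to 0.107 for *Clock*, −0.089 to 0.071 for *Npas2*, −0.146 to 0.0178 for *Arnt2*, −0.0106 to 0.105 for *Arntl* and 0.094 (without HET embryo 24) to 0.599 (without HET embryo 5) for *Npas4*. The difference of the *Arnt2* to *Arnt* ratio was −0.244 to −0.0207 in the same way. The causes of these shifts were not tested. No paired analysis was possible because the litter of each embryo is not given, and the embryo numbers are sample labels that do not define pairs. Depth limits *Sim1* and *Sim2*, which had at most 4 and 11 counts.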
